A study of Homo sapiens with 14 samples.

Results

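The genes described here are 49 genes of DNA replication and S phase, listed by role and taken by symbol from the array annotation. The list was drawn up with earlier results of these data known. All 49 were on the array, out of 18417 named genes, and 47 passed a filter on dim genes. The remaining 2, DBF4 and POLD1, had means of 5.76 and 5.74, just under the filter at 5.90, with levels on the 14 arrays between 4.84 and 6.63 for DBF4 and between 5.06 and 6.28 for POLD1. Levels and differences are on the log2 scale throughout, so a difference of 1 is a doubling. They come from whole-transcript microarrays of a gastric carcinoma line that the labels call MKN28 and the study's text MKN74.

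The series followed epithelial-mesenchymal transition (EMT), in which epithelial cells lose their contacts and turn motile, and the part played in it by the secreted protein ANGPTL4. The parental line gave 9 of the arrays, namely untreated cells at day 2, hypoxia at 1% oxygen or 10 ng/ml TGFβ1 at days 1 and 2, and the same 4 treated conditions with ANGPTL4 knockdown. The other 5 arrays came from MKN28snai1ER, a derivative that carries a Snai1-ER transgene switched on by 4-hydroxytamoxifen (4-OHT). They were untreated cells at day 4, 20 ng/ml 4-OHT at days 2 and 4, and 4-OHT at both days with knockdown. For the Snai1-ER line the labels name a derivative with a short hairpin against ANGPTL4, shANGPTL4, and the way of knockdown on the parental arrays is not given in the sources used here. Each condition had 1 array, no untreated array had a knockdown partner, and no parental array received 4-OHT, so a difference between 2 arrays has no replicate check and the drug cannot be told apart from the activated transgene.

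Before it divides, a cell licenses its replication origins in G1 by loading the MCM helicase with the help of ORC, CDC6 and CDT1. Origins fire in S phase when CDC7 with DBF4, CDC45, the GINS complex and MCM10 turn the helicase on, after which primase, polymerases, the sliding clamp PCNA and its loader RFC copy the strands. Cyclin E, CDC25A and the E2F factors drive the G1/S switch, and activating E2F proteins bind promoters of many replication genes, whereas E2F7 and E2F8 repress them. The 49 genes were grouped by these roles into licensing (10 genes), origin firing (8), DNA synthesis (14), nucleotide supply (4), the G1/S switch (7), and fork protection with chromatin assembly (6). In cultures measured as a whole, fewer cells in S phase and less RNA per cell cannot be told apart.

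Promoter sequence, which the selection did not use, is shown first because E2F letters were found in part of these promoters. RefSeq promoters on GRCh38.p14 were found for 43 of the 49 genes, and the 250 bases before each start site were searched on both strands for the E2F letters TTTCCCGC, TTTCGCGC, TTTGCCGC and TTTGGCGC. A match stood in 16 of 43 replication promoters (37.2%), in 589 of 15843 protein-coding promoters (3.72%), and in 1 of 30 promoters of mitosis genes (3.33%). The stretches of 90 bases below are from subunits of the licensed helicase (MCM3, MCM6), the GINS complex (GINS2), the clamp (PCNA), the clamp loader (RFC3), the G1/S switch phosphatase (CDC25A) and an E2F factor (E2F1). Apart from E2F1, they were picked because the promoter held a match and the gene fell on hypoxia by the rule given below. Each reads 5′ to 3′ on the gene's own strand, with E2F matches of either strand in capitals, and in MCM6 4 overlapping matches form 2 sites.
MCM3, chr6:52284868-52284957, minus strand: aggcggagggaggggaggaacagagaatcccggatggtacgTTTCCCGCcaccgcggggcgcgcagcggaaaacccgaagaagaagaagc
MCM6, chr2:135876514-135876603, minus strand: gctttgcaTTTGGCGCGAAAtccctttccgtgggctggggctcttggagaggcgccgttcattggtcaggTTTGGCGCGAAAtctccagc
GINS2, chr16:85688955-85689044, minus strand: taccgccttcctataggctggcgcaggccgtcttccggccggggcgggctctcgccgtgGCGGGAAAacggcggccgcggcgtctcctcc
PCNA, chr20:5126633-5126722, minus strand: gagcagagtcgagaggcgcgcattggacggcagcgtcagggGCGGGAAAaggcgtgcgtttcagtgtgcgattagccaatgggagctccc
RFC3, chr13:33818053-33818142, plus strand: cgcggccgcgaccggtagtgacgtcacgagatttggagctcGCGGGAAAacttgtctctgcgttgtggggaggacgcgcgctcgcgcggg
CDC25A, chr3:48188418-48188507, minus strand: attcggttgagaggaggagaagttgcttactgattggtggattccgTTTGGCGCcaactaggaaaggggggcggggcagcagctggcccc
E2F1, chr20:33686386-33686475, minus strand: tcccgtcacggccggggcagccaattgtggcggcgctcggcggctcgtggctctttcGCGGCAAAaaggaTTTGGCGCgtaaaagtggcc

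The matches lay close to the start site in several of these promoters, beginning 44 bases before it in CDC25A, 55 in RFC3 and 59 in PCNA, but 174 bases before it in MCM3. The CCAAT box, letters CCAAT, was in 55.8% of the replication promoters, in 73.3% of the mitosis promoters and in 34.5% of all. The CHR element of mitotic promoters, letters TTTGAA, was in 1 of 43 replication promoters (2.33%), against 50% of the mitosis promoters and 10.8% of all. A match is a run of letters and not a shown binding site.

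The 2 TGFβ1 arrays without knockdown had deposited medians of 5.23 and 5.19, against 6.0 to 6.16 on the other 12 arrays, so all arrays were quantile normalized before they were compared. The array of hypoxia with knockdown at day 1 stood apart from the rest, with an SD of 0.72 between its levels and the mean of the others against 0.27 to 0.56 for the other arrays. SNAI1 was at 8.74 to 9.78 on the 5 Snai1-ER arrays and at 5.48 to 6.07 on the 9 parental ones, as the labels have it. ANGPTL4 lay at 4.97 to 5.39 on all 14 arrays, below the filter, and therefore could not check the knockdown. Epithelial markers were present, all 6 of 6 above the filter with EPCAM at a mean of 11.7, none of 4 measured leukocyte or 4 endothelial markers passed it, and 1 of 5 fibroblast markers did (COL1A1, mean 6.91).

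**Figure D1:**
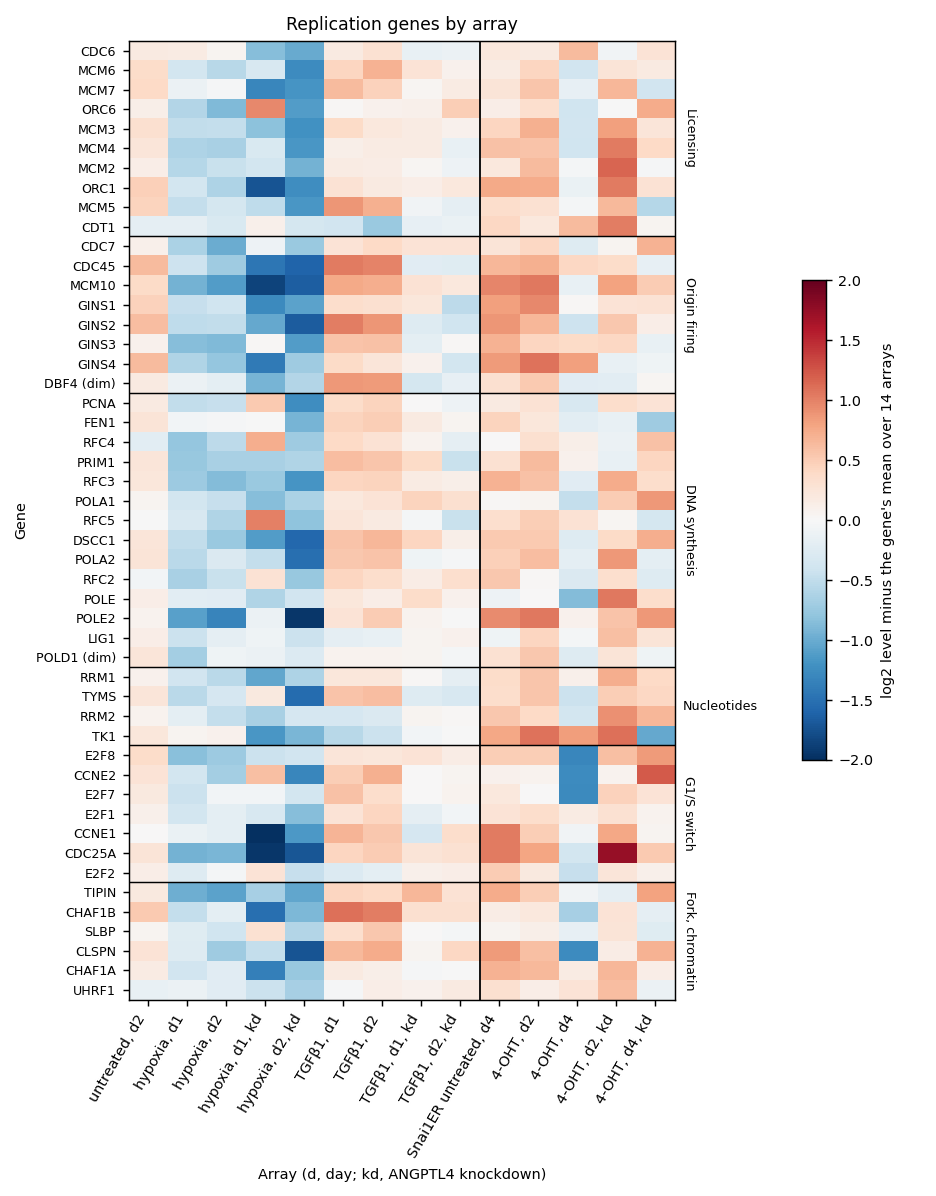
Levels of the 49 replication genes (rows, grouped by role) on the 14 arrays (columns), each as the log2 level minus the gene's mean over the arrays; blue is below and red above that mean, and "dim" marks the 2 genes below the filter. The 4 hypoxia columns are mostly blue, and the columns of TGFβ1 without knockdown and of the Snai1-ER line are mostly red except for 4-OHT at day 4.

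Replication genes were lower on hypoxia as a group. A gene was said to rise or fall when, at each of the 2 times, it lay 1.5-fold or more above or below the untreated array of its line. The untreated array was of day 2 in the parental line and day 4 in the Snai1-ER line, so the earlier treated arrays had none of their own day. On hypoxia 24 of the 47 replication genes fell and 0 rose, against 1.95% of the 11050 genes that fell and 3.02% that rose. The mean difference of the 2 times was below 0 for all 47, and the median difference was -0.70 at day 1 and -0.64 at day 2, against -0.04 and -0.01 over all genes.

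The fall was uneven by role. All 7 measured origin-firing genes fell (median -1.12), as did 7 of 10 licensing genes (median -0.82). Of the DNA synthesis genes 5 of 13 fell, and so did 3 of 7 genes of the G1/S switch and 2 of 6 of fork protection and chromatin. None of the 4 genes of nucleotide supply passed the rule, with a median of -0.47. Whether the roles differ from each other was not tested.

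Among the origin-firing genes, MCM10, which helps start the unwound fork, stood at 9.81 untreated and at 8.49 and 8.32 on hypoxia at days 1 and 2. With knockdown it was at 7.59 and 7.78 on hypoxia, the lowest levels of all arrays. On TGFβ1 it was at 10.19 and 10.15 without knockdown and at 9.72 and 9.64 with it, so the 4 hypoxia arrays lay below the 4 TGFβ1 arrays without overlap. In the Snai1-ER line MCM10 was at 10.40 untreated, 10.48 and 9.29 on 4-OHT at days 2 and 4, and 10.24 and 9.94 with knockdown.

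CDC45, a subunit of the active helicase, went from 10.15 untreated to 9.11 and 8.80 on hypoxia and to 8.07 and 7.92 on hypoxia with knockdown. It was at 10.55 and 10.51 on TGFβ1 and at 9.29 and 9.27 on TGFβ1 with knockdown. In the Snai1-ER line it ranged from 9.36 to 10.22, with the lowest level on the day 4 array with knockdown. GINS4, a subunit of the GINS complex, went from 7.17 untreated to 5.94 and 5.77 on hypoxia, and was at 5.12 and 5.83 with knockdown. On TGFβ1 GINS4 was at 6.92 and 6.77, and with knockdown at 6.63 and 6.18. Its Snai1-ER levels were 7.39 untreated, 7.62 and 7.36 on 4-OHT, and 6.39 and 6.46 with knockdown, so both knockdown arrays lay below the other 3. The remaining GINS subunits differed from the untreated array by -0.87 to -1.12 on hypoxia, and CDC7, the kinase that fires origins and the brightest gene of its role, by -0.73 and -1.08.

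Among the licensing genes MCM2 to MCM6 fell, with differences between -0.59 for MCM2 at day 2, just past the rule, and -0.92 for MCM6 at day 2, whereas MCM7 was at -0.50 and -0.42. The origin recognition subunits ORC1 (-0.84 and -1.10) and ORC6 (-0.70 and -1.0) fell too. CDC6, the brightest licensing gene, differed by -0.0046 and -0.12 from its untreated level of 10.75, and CDT1 by 0.0031 and -0.13 from 5.97, close to the filter.

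In DNA synthesis the largest difference was that of POLE2, the second subunit of polymerase epsilon. It went from 7.29 untreated to 6.14 and 5.89 on hypoxia, and with knockdown was at 7.10 at day 1 and 5.27 at day 2. On TGFβ1 POLE2 stood at 7.50 and 7.72, and at 7.29 and 7.21 with knockdown. Its Snai1-ER levels were 8.16 untreated, 8.28 and 7.31 on 4-OHT, and 7.79 and 8.09 with knockdown. RFC3 (-0.95 and -1.10), the primase PRIM1 (-0.996 and -0.89), DSCC1 (-0.73 and -0.98), which helps load the clamp, and PCNA (-0.66 and -0.64) also fell. The ligase LIG1, the flap nuclease FEN1, the catalytic subunit POLE and the loader subunits RFC2, RFC4 and RFC5 did not pass the rule, with differences between -0.29 and -0.61. Nor did the subunits of the polymerase that extends primers first, POLA1 (-0.42 and -0.51) and POLA2 (-0.80 and -0.54).

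Among the nucleotide genes TYMS, which makes thymidylate, was just outside the rule at -0.78 and -0.58. The ribonucleotide reductase subunits RRM1 (-0.46 and -0.61) and RRM2 (-0.26 and -0.54) and the thymidine kinase TK1 (-0.17 and -0.14) did not pass it.

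In the G1/S switch CDC25A, the phosphatase that activates CDK2, was at 7.13 untreated, 5.93 and 5.96 on hypoxia, and 4.93 and 5.17 on hypoxia with knockdown. It was at 7.30 and 7.39 on TGFβ1 and at 7.13 and 7.18 with knockdown, again without overlap with hypoxia. In the Snai1-ER line it was at 7.91 untreated, 7.66 and 6.50 on 4-OHT, and 8.61 and 7.40 with knockdown. The repressor E2F8 (-1.21 and -1.10) and CCNE2, a cyclin E (-0.65 and -0.95), fell. The other cyclin E gene, CCNE1, was at -0.15 and -0.21, and E2F1 at -0.45 and -0.29. E2F7 was at -0.63 and -0.25, and E2F2 at -0.40 and -0.18.

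TIPIN, which with TIMELESS steadies the fork, was at 10.74 untreated, 9.56 and 9.47 on hypoxia, and 9.88 and 9.50 with knockdown. Its TGFβ1 levels ran from 10.84 to 11.21 over 4 arrays, all above hypoxia, and its Snai1-ER levels from 10.36 to 11.36. CHAF1B, of the histone chaperone CAF-1, fell by 1.01 and 0.73. CLSPN passed 1.5-fold at day 2 alone (-0.53 and -0.97). CHAF1A, the partner of CHAF1B, was at -0.55 and -0.39, and SLBP, which binds histone mRNA, at -0.30 and -0.46. UHRF1, which carries DNA methylation through replication, was at 0.03 and -0.07.

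Beyond the 47 genes, a wider set of 66 replication and G1/S genes held 10 that fell on hypoxia and 0 that rose, with a median of -0.33. They included DTL (-1.10 and -1.27), which guides destruction of CDT1, the cyclin CCND1 (-0.95 and -0.79) and SKP2 (-0.94 and -0.59), which marks p27 for destruction. Among 35 mitosis genes 1 fell, the kinetochore gene SPC25 (-0.63 and -0.75), and their median was -0.30. Of the 6 measured CDK inhibitors, CDKN1A, which encodes p21, rose by 0.84 and 0.81. The others, CDKN1B, CDKN1C, CDKN2A, CDKN2B and CDKN2D, lay between -0.10 and 0.38. Of the 18 replication promoters of genes that fell, 6 (33.3%) held an E2F match, and of the 23 that did not fall 10 (43.5%) did. No promoter was found for MCM4, MCM5, GINS4, DSCC1, E2F8 and CCNE2, all of which fell. The share among fallen genes therefore leaves these out, and the shares do not show whether fallen genes held fewer matches.

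**Figure D2:**
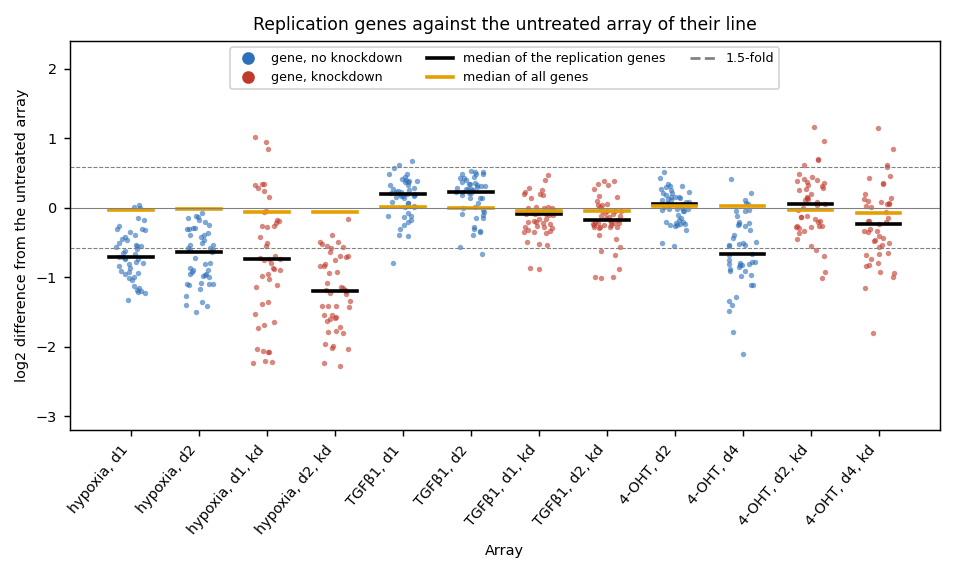
Difference of each of the 47 replication genes (points) from the untreated array of its line, on a log2 scale, for the 12 treated arrays; blue points are without and red with knockdown, black bars are medians of the replication genes, orange bars medians of all 11050 genes, and dashed lines mark 1.5-fold. The black bar lies at -0.70 and -0.64 on hypoxia, at 0.19 and 0.23 on TGFβ1, and at -0.66 on 4-OHT at day 4.

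TGFβ1 gave no fall of the group. Of the 47 genes 0 rose and 1 fell, against 2.47% and 3.27% of all genes, and the 2 comparisons with hypoxia and TGFβ1 used the same untreated array. The gene that fell was TK1, at 8.57 untreated and at 7.78 and 7.91 on TGFβ1, and it was at 8.29 and 8.33 with knockdown. The median difference was 0.19 at day 1 and 0.23 at day 2, and 34 of 47 mean differences were above 0. These small values turned on the scaling: as deposited the median was -0.06 where that of all genes was -0.46. The deposited shift was unequal, with CDT1 at 6.06 untreated and 5.02 and 4.57 on TGFβ1, and PCNA at 10.81, 10.77 and 10.94. The replication genes were bright, with a median of 8.89 on the untreated parental array against 5.94 over all its probe sets. Whether the gap between the deposited medians came from level alone was not tested. By the rule 0 rose and 6 fell as deposited, and 28 rose and 0 fell when arrays were centred on their medians. DBF4, below the filter, differed by 0.69 and 0.67 after quantile normalization. It did not pass the rule as deposited, at 6.0337 untreated and 6.0488 and 6.0028 on TGFβ1 at days 1 and 2. In the wider set SAMHD1, which breaks down nucleotides, fell by 1.06 and 1.03, and CDK6 rose by 0.82 and 1.03. CDK6 did not pass the rule as deposited, and SAMHD1 did not pass it with arrays centred on their medians. All 6 CDK inhibitors were between -0.37 and 0.33, and 0 of 35 mitosis genes passed the rule.

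The direct comparison of both treatments of the parental line used no untreated array. It set the 4 hypoxia arrays against the 4 TGFβ1 arrays, paired by day and knockdown state, in a limma fit over all genes with Benjamini-Hochberg adjustment at 0.05. The p-values of this fit measure the spread between pairs that differ in day and knockdown, not between repeats of a condition, and the hypoxia arrays without knockdown are those described above. Of the 47 genes 13 were lower on hypoxia and 0 higher, against 1.53% and 1% of all genes, and 46 of 47 differences were below 0. Their median was -0.82, against -0.01 over all genes, and 36 of the 47 had an unadjusted p under 0.05, as did 21.1% of all genes.

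MCM10 differed most, by -1.88 (SE 0.14, limma adjusted p = 0.0189, lower in 4 of 4 pairs). CDC25A differed by -1.75 (SE 0.19, adjusted p = 0.0196 in the same limma fit), CDC45 by -1.43 (SE 0.14) and TIPIN by -1.39 (SE 0.13), the last 2 with an adjusted p of 0.0189 each in limma. CHAF1B ran from 7.77 to 9.06 on the 4 hypoxia arrays and from 9.58 to 10.37 on the 4 TGFβ1 arrays, a difference of -1.46 (SE 0.16). DSCC1 ran from 6.71 to 7.79 on hypoxia and from 8.40 to 8.94 on TGFβ1, a difference of -1.42 (SE 0.16). Neither gene overlapped between the treatments, on the same arrays that gave the call. How many of all genes lay apart in this way, as MCM10, CDC25A and TIPIN also did, was not counted. The other 7 called genes were GINS2 (-1.23), CCNE1 (-1.19), RFC3 (-1.16), MCM6 (-0.996), MCM3 (-0.96), POLA1 (-0.89) and E2F8 (-0.82), each lower in 4 of 4 pairs. CDT1 alone was above 0, at 0.17.

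CCNE1 thus differed between the treatments without passing the rule on hypoxia itself, since its hypoxia levels without knockdown were 6.77 and 6.71 against 6.92 untreated, and with knockdown 4.84 and 5.76. On TGFβ1 it was at 7.59 and 7.45 without and at 6.57 and 7.25 with knockdown. In the wider set 10 of 66 genes were called lower and 0 higher, among them DTL (-1.43), CCND1 (-1.28), RBL1 (-1.09), a relative of the retinoblastoma protein, and the replication checkpoint kinase CHEK1 (-0.99). Among the 35 mitosis genes 0 were called and 13 had an unadjusted p under 0.05. Calls depended on the pairs. Leaving out the pair that holds the hypoxia array with knockdown at day 1, which stood apart, 39 of the 47 genes were called lower against 9.81% of all genes, while leaving out any of the other 3 pairs gave 0 calls among these genes. On the values as deposited 8 were called lower and 0 higher, where all genes split into 51 lower and 185 higher.

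**Figure D3:**
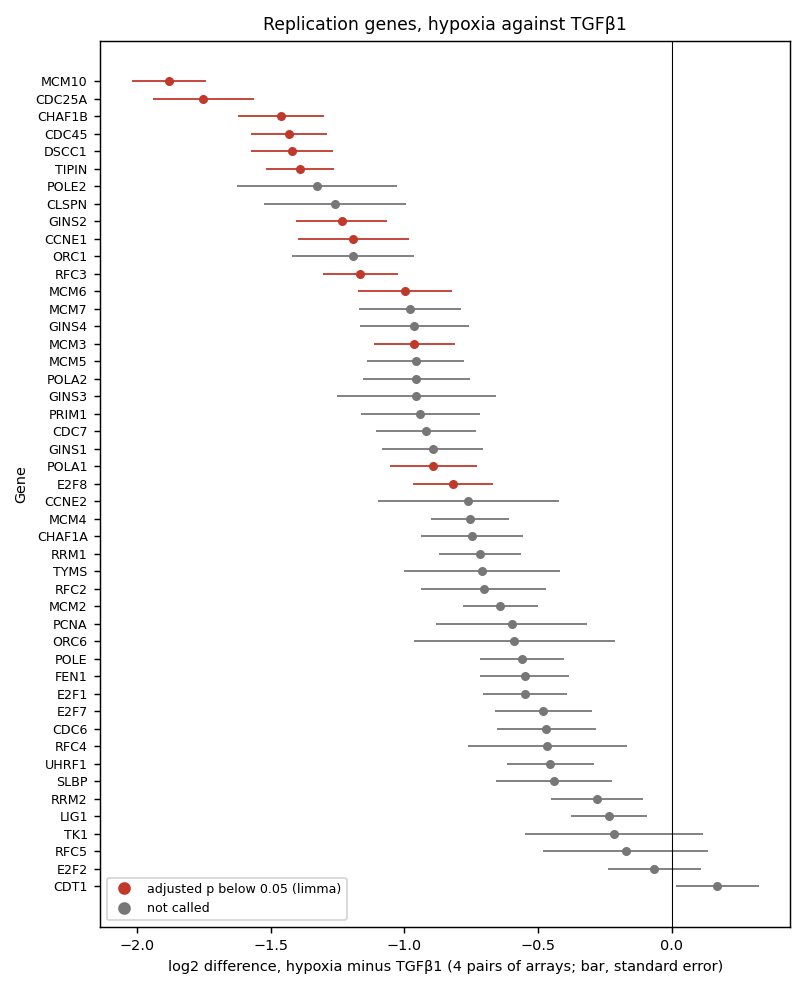
Difference between hypoxia and TGFβ1 for each of the 47 replication genes, on a log2 scale, as the mean over 4 pairs of arrays with its standard error from limma; red marks an adjusted p below 0.05. All genes but CDT1 lie left of 0, and the 13 red ones run from -1.88 for MCM10 to -0.82 for E2F8.

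In the Snai1-ER line the replication genes were lower at day 4 of 4-OHT and not at day 2. By the rule for both times 0 rose and 0 fell, against 2.33% and 1.21% of all genes. At day 2 the median was 0.05 and 0 of 47 genes were at least 1.5-fold lower (1.91% of all genes). At day 4 the median was -0.66, 24 of 47 were at least 1.5-fold lower (10.2% of all genes) and 0 were as much higher (10.8%). These day 4 values rest on 1 treated and 1 untreated array. The day 2 array was set against the same untreated array of day 4, so treatment and day of culture cannot be told apart there.

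The G1/S switch was lowest at day 4, with a median of -1.34. CLSPN, the adaptor that relays fork stalling to CHEK1, lies outside that role. It was at 9.47 untreated, 9.22 at day 2 and 7.37 at day 4, a 4.28-fold difference, and with knockdown at 8.77 and 9.31. E2F8 was at 9.08, 9.08 and 7.29, and with knockdown at 9.19 and 9.43. E2F7, likewise a repressor, was at 8.33, 8.12 and 6.85, and with knockdown at 8.58 and 8.38. CCNE2 was at 8.53, 8.51 and 7.19, and with knockdown at 8.52 and 9.68. For these 4 genes the day 4 array without knockdown was thus the lowest of the 5, and the day 4 array with knockdown was not lowered to that level.

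Single genes of several roles lay apart from these. CDC6 was at 10.79 untreated and 11.21 at day 4, and GINS4, CDC45, LIG1, TK1 and RFC4 differed by -0.24 to 0.12 at day 4. MCM2, SLBP, PRIM1, RFC5, UHRF1 and E2F1, the last of the G1/S switch, lay in the same range, and CDT1 was at 0.22. CDKN1A was 0.25 higher at day 2 and 1.42 higher at day 4, and the other 5 CDK inhibitors lay between -0.18 and 0.61 over both days. In the wider set 2 genes rose and 0 fell, CCND2 (0.83 and 2.34) and RBL2 (0.66 and 0.68), a relative of RBL1. The median of the 35 mitosis genes was 0.05 at day 2 and -0.58 at day 4.

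Knockdown of ANGPTL4 was tested over 6 pairs of arrays that share treatment and time. In limma 1 of the 47 genes was lower, CDC45, and 0 were higher, against 0.787% and 0.0905% of all genes. CDC45 differed by -0.89 (SE 0.15, limma adjusted p = 0.0409), lower in 6 of 6 pairs. Its call was lost on the values as deposited (limma adjusted p = 0.103) and when any pair other than that of hypoxia at day 1 was left out (limma adjusted p 0.0694 to 0.131). Leaving out any of those pairs also left only 0 to 4 genes lower among all 11050, against 87 with every pair. CDC6 was also lower in 6 of 6 pairs, by -0.57 (SE 0.15), and was not called (limma adjusted p = 0.113). As deposited CDC6 was not lower on TGFβ1 at day 1, at 10.53 with and 10.50 without knockdown. An unadjusted p under 0.05 was found for 8 of 47 genes, near the 19.0% of all genes. In the wider set POLE3, a small subunit of polymerase epsilon, was called lower (-0.74, SE 0.12, limma adjusted p = 0.0381).

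The pairs did not move alike. The median of the 47 knockdown differences was 0.04 and -0.53 on hypoxia at days 1 and 2, -0.24 and -0.33 on TGFβ1, and 0.05 and 0.46 on 4-OHT at days 2 and 4. On the values as deposited the TGFβ1 medians were 0.13 and 0.01, where those of all genes were both 0.46. At day 2 of hypoxia 22 of 47 genes were at least 1.5-fold lower with knockdown (9.9% of all genes). At day 4 of 4-OHT 18 of 47 were at least 1.5-fold higher (13.7%), led by CCNE2 (2.49), E2F8 (2.15), CLSPN (1.94) and E2F7 (1.54). These 4 genes were among the 5 that lay farthest below the untreated array on the partner array without knockdown, and both differences share that partner.

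By the rule for both times knockdown on hypoxia lowered 10 genes and raised 0, against 3.76% and 0.67% of all genes. They were CCNE1, CDC25A, CDC45, CDC6, CHAF1B, DSCC1, GINS1, MCM7, ORC1 and TK1. CDC6 was at 9.73 and 9.57 with knockdown against 10.75 and 10.63 without, and MCM7 at 7.77 and 7.90 against 8.97 and 9.05. Both had stayed within 1.5-fold of the untreated array on hypoxia without knockdown. The day 1 pair behind these calls holds the array that stood apart. In that pair 14 of the 47 genes were at least 1.5-fold lower and 9 higher, against 22.2% and 14.7% of all genes. Against the untreated array, hypoxia with knockdown lowered 25 genes (5.8% of all genes).

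Knockdown on TGFβ1 lowered 6 genes and raised 0, against 4.48% and 1.36% of all genes, namely CDC45, CHAF1B, GINS2, MCM5, POLA2 and TYMS. GINS2 was at 9.84 and 9.71 without and 8.55 and 8.42 with knockdown, where the untreated array had 9.44. Against the untreated array 2 of 47 fell, CDC45 and GINS2 (3.74% of all genes). The low deposited medians belong to the TGFβ1 arrays without knockdown, and these calls turned on the scaling. As deposited 2 fell (CDC45, GINS2) and 6 rose, against 0.751% and 27.6% of all genes, and with arrays centred on their medians 26 fell and 0 rose, against 23.7% and 0.633%. CDC45 and GINS2 fell on all 3 scales.

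Knockdown on 4-OHT raised CDC25A (0.96 and 0.90) and POLE (1.04 and 1.22) and lowered GINS4 (-1.23 and -0.90), so 2 rose and 1 fell against 2.19% and 7.48% of all genes. Against the untreated Snai1-ER array 2 genes fell, FEN1 and GINS4 (5.43% of all genes), and at day 4 alone 12 of 47 were at least 1.5-fold lower (13.4% of all genes).

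**Figure D4:**
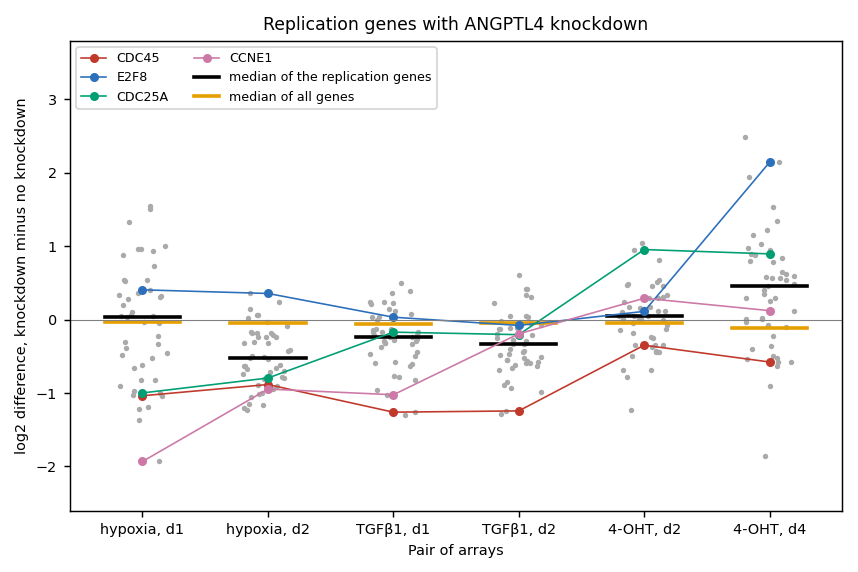
Difference between the array with and the array without ANGPTL4 knockdown for the 47 replication genes (grey points) in each of 6 pairs of arrays, on a log2 scale; black bars are medians of these genes, orange bars medians of all genes, and lines follow CDC45, E2F8, CDC25A and CCNE1. CDC45 lies below 0 in all 6 pairs, and the black bar runs from -0.53 for hypoxia at day 2 to 0.46 for 4-OHT at day 4.

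Whether knockdown acted differently in the 2 lines was asked by an interaction term, the difference of the 2 Snai1-ER pairs minus that of the 4 parental pairs. No replication gene was called by limma, and 0 of all genes were (0%). The estimate was above 0 for 38 of 47 genes with a median of 0.56, against -0.04 over all genes, and 14 of 47 had an unadjusted p under 0.05, as did 10.7% of all genes. The smallest p-values were those of POLE (1.25, SE 0.26, limma adjusted p = 0.186) and CDC25A (1.47, SE 0.31, limma adjusted p = 0.194). CDC25A was lower in all 4 parental pairs and higher in both Snai1-ER pairs, as were 6 of the 47 genes in all and 2.31% of all genes. This split was read after quantile normalization and turned on the scaling of the TGFβ1 arrays. As deposited CDC25A was higher with knockdown in both TGFβ1 pairs, at 7.22 and 7.29 against 6.83 and 6.92 without. Line and treatment changed together between these pairs and cannot be told apart.

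Later against earlier arrays of the same treatment and knockdown state gave 0 calls in limma among the 47 genes and 0 (0%) among all genes. The later array was lower in the mean over 6 pairs for 45 of 47 genes. The median was -0.26, against -0.01 over all genes. An unadjusted p under 0.05 was found for 7 of 47, and for 1.46% of all genes. The pairs were unequal: the median was -0.67 on 4-OHT, -0.02 on hypoxia and 0.02 on TGFβ1 without knockdown, and -0.34, -0.43 and -0.04 with it. Over all genes the medians of these pairs lay between -0.05 and 0.02.

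Across the 14 arrays the replication genes varied together. The median correlation between 2 of them was 0.62, over a range of -0.32 to 0.97, and a gene's median correlation with the mean of the others was 0.81. RFC3 (0.99), MCM3 (0.97) and MCM10 (0.96) followed the mean most closely. CDT1 (0.26), RFC5 (0.38), TK1 (0.45), RFC4 (0.47) and E2F2 (0.49) followed it least. The arrays share treatments and an untreated array, so these correlations describe the 14 arrays only. The same measure was not taken over all genes, so the values do not show whether these genes varied together more than others. ORC6, RFC4 and RFC5 were highest of all arrays at 9.79, 11.2 and 9.29 on hypoxia with knockdown at day 1, the array that stood apart, and on hypoxia with knockdown at day 2 they were at 7.71, 9.74 and 7.48.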

How the data were processed

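The 14 arrays were GeneChip Human Gene 1.0 ST arrays with 33297 probe sets. The authors processed them by RMA in Partek, and the deposited values are log2 expression levels. Here they were quantile normalized over the 14 arrays (limma 3.58.1, R 4.3.3). Probe sets with 1 gene symbol in the platform annotation were averaged by gene (18417 genes), and the 11050 genes with a mean at or above the 40th percentile (log2 5.90) were kept. Equal values on at least 2 arrays occurred in 4 of 51 probe sets of the replication genes and 29.6% of all. Differences from an untreated array were read by a rule of 1.5-fold. Fits over pairs used lmFit and eBayes with the pair as a block and Benjamini-Hochberg adjustment over all genes kept, and were tested on simulated data. Arrays were grouped by source name. Nothing in the labels says that arrays came from separate cultures. The number of arrays limits the precision. Alternatives were the deposited values, median centring, no filter, the brightest probe set, a 2-fold rule, single times, no block, a mean-variance trend and each pair left out.

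The genes, roles and comparison lists were chosen with earlier results of these data known. Values on every array were given for the 6 genes with the largest mean difference among those that changed on a treatment. The same was set for the 6 smallest p-values of a fit and the brightest gene of each role, here partly as ranges. Further genes were singled out after their values were seen. The wider set and the mitosis, CDK inhibitor and cell type marker lists came from textbook roles.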

Additional observations from a re-analysis of the deposited data

How the results depend on the processing

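The fall on hypoxia kept its count within 1.5 times of 24 under each alternative except the 2-fold rule, which left 8 of the 47 genes. On the deposited values MCM2 no longer passed, and with arrays centred on their medians neither MCM2 nor PCNA did. On TGFβ1, 6 genes fell on the deposited values, 0 with median centring and 0 by the 2-fold rule. There 28 rose with median centring, 2 at day 1 alone and 1 without the filter, and the median of the 47 genes turned from above 0 to -0.0608 as deposited. On 4-OHT, 24 fell by day 4 alone. With knockdown, 0 genes were lower as deposited, 6 with median centring, 0 without the block, and 0 to 1 with a pair left out. On hypoxia against TGFβ1, 8 were lower as deposited, 32 with median centring, and 0 to 39 with a pair left out. The knockdown pairs alone as deposited, an alternative chosen after seeing the data, gave 0. Knockdown on TGFβ1, rescaled after seeing the data, gave 2 genes that fell and 6 that rose as deposited and 26 and 0 with median centring, and on hypoxia and 4-OHT its counts stayed within 1.5 times. Why these counts moved was not tested. No paired analysis by replicate number was possible because the labels carry none.

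Over all 11050 genes, TGFβ1 gave 50 that rose and 3565 that fell as deposited, and 2490 and 206 with median centring. The knockdown fit gave 5 higher and 9 lower as deposited, and 20 and 1171 with median centring. The fit of hypoxia against TGFβ1 gave 185 and 51, and 109 and 1076. With 1 array per condition, a difference from the untreated array has no error of its own.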
